A study of Homo sapiens with 19 samples.

Results

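The HOXA cluster is the run of 11 homeobox genes on human chromosome 7, and 9 of them were followed here: HOXA3, HOXA4, HOXA5, HOXA6, HOXA7, HOXA9, HOXA10, HOXA11 and HOXA13, of 20033 protein-coding genes in GENCODE release 44. The members were listed by name, with no threshold on their values. They were measured together with the whole cluster and 20 kb on either side, chr7:27072993-27220091 on hg38, a window of 147.1 kb that held 211 of the 292523 peaks of the 12 peak lists analysed. All 9 genes lie on the minus strand, so that HOXA3 is at the low end of the coordinates and HOXA13 at the high end. HOXA3 to HOXA7 are called anterior and HOXA9 to HOXA13 posterior, after the part of the embryonic body axis they pattern.

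HOX genes encode transcription factors that bind DNA together with partners of the TALE family (MEIS, PBX and PKNOX proteins) and give cells their position along the body axis. In blood formation the HOXA genes are active in stem and progenitor cells and are silenced as myeloid cells mature. In leukaemias with a KMT2A fusion, the fusion protein keeps the posterior HOXA genes active, and HOXA9 with its partner MEIS1 is required for growth. MOLM-13, the cell line used, is a human acute myeloid leukaemia line with a fusion of KMT2A and MLLT3.

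CUT&RUN, in which an antibody guides a nuclease to release the DNA that carries a histone mark, was done for H3K27ac, an acetyl mark of active regulatory DNA, for H3K4me2, which spreads around promoters and enhancers, and for H3K4me3, which marks promoters. MOLM-13 cells were treated for 24 h with 0.1 µM Corin or with the solvent DMSO, for which the labels give the same figure, and each mark and treatment has 2 libraries. Corin inhibits both the histone deacetylases and the demethylase LSD1 of the CoREST complex; LSD1 removes methyl groups from H3K4me2. The comparison addresses where the marks lie in the HOXA cluster without and with CoREST inhibition; the labels do not say whether the replicates were separate cultures, so p-values measure the spread between these libraries.

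The measure used throughout is the number or percent of bases under peaks, with overlapping peaks counted once. A peak list says where the signal passed the caller's threshold; apart from a score whose meaning is not given it holds no measure of signal, and it cannot tell more cells with a mark from more of the mark per cell. Promoters are the 2001 bp from 1 kb before to 1 kb after the start of the canonical transcript, and a group is called higher or lower when both its libraries lie beyond both of the other treatment. The lists held 17599 to 34424 peaks for H3K27ac, 30896 to 41152 for H3K4me2 and 11104 to 11883 for H3K4me3, and those of Corin were longer for all 3 marks. In the DMSO libraries 5 of 8 myeloid marker promoters (CD33, FLT3, SPI1, CEBPA and LYZ) carried an H3K4me3 peak in both libraries, MPO, ANPEP and CSF1R had none, and all 12 markers of T cells, B cells, erythroid, epithelial and liver cells had none.

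The sequences below are shown because the marks part at them: HOXA9 is the member with the longest H3K4me3 cover, HOXA3 the one whose promoter had H3K27ac in both Corin libraries and neither DMSO library, and HOXA13 one with H3K4me3 and almost no H3K27ac. Each is the 250 bases before the RefSeq start (GRCh38.p14), 5′ to 3′ on the minus strand, with CG dinucleotides, the sites of DNA methylation, in capitals.
HOXA9, chr7:27165538-27165787: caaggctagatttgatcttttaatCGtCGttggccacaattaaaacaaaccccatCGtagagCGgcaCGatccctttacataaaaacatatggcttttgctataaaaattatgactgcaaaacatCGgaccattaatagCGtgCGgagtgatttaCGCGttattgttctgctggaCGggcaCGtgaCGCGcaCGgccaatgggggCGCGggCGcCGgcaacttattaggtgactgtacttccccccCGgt
HOXA3, chr7:27152584-27152833: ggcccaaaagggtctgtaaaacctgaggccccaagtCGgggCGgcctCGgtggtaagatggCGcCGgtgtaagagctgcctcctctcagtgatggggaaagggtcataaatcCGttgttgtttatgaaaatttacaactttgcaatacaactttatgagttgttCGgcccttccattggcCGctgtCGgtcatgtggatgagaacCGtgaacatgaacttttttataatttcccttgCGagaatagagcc
HOXA13, chr7:27200092-27200341: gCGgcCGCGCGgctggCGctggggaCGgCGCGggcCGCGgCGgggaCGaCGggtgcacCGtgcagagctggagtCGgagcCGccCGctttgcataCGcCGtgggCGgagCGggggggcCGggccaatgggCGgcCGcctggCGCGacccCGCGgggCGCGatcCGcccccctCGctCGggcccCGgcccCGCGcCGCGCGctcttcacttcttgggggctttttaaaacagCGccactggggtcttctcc

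The HOXA13 promoter held 40 CG dinucleotides in these 250 bases, more than 97.8% of the 35116 RefSeq promoters of the same length, whose median was 11. HOXA9 held 20 and HOXA3 11, so the member with the densest CG was not the one with the most marked bases. The other RefSeq starts, HOXA5 having no entry in the table used, ranged from 0 to 28, and HOXA3 alone has 7 starts with 0 to 26. Motifs were searched by exact match on both strands. The core of the CTCF motif was found once each before HOXA7, HOXA11 and HOXA13 and is in 13.1% of all promoters. The composite motif of HOX and PBX proteins, TGATNNAT (in 6.47% of all promoters) and the DR5 element of the retinoic acid receptor (in 0.0769%) were in none of the member windows, which says only that these letters are not there.

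Between HOXA9 and HOXA10 lies MIR196B, a microRNA gene of the cluster that targets HOX transcripts. Its mature arms and their close relative from the HOXB and HOXC clusters are printed from RefSeq with the seed, bases 2 to 8, in capitals.
hsa-miR-196b-5p: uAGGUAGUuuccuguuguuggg
hsa-miR-196b-3p: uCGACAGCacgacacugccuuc
hsa-miR-196a-5p: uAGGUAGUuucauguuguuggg

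Both 5p arms have the same seed, but their genes differed in chromatin. The MIR196B hairpin (chr7:27169480-27169563, 84 bp) lay wholly under H3K4me3 peaks in all 4 libraries, and the 2084 bp around it were covered throughout in each. H3K27ac covered 2057 and 1982 of these bases after Corin and 1494 and 1921 after DMSO. MIR196A2 in the HOXC cluster and MIR196A1 in the HOXB cluster had no peak of any mark within 1 kb in any of the 12 libraries.

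HOXA carried far more of the 3 marks than the other HOX clusters. Averaged over the 12 libraries, 21.3% ± 9.78 (SD, n = 12) of the HOXA window lay under peaks, against 0.487% ± 0.737 of HOXB, 1.28% ± 1.90 of HOXC and 0.630% ± 0.996 of HOXD, each taken with the same flanks. These SDs include the differences between marks. Within a mark, over both treatments, the SD for HOXA was 4.35 for H3K27ac, 0.999 for H3K4me2 and 0.610 for H3K4me3. HOXB, HOXC and HOXD had no H3K27ac peak in any library, and the only H3K4me3 peak among them was one of 288 bp in HOXB in DMSO replicate 1. What they did carry was H3K4me2, over 0.824% to 1.89% of HOXB, 3.57% to 4.46% of HOXC and 0.906% to 2.49% of HOXD. HOXA exceeded HOXB by 20.8 points, HOXC by 20.03 points and HOXD by 20.7 points, in 12 of 12 libraries each time (exact sign-flip permutation test over libraries, two-sided p = 0.000488 and adjusted p = 0.000488 for each of 3 comparisons, the smallest the test can give). This test took the 12 libraries, of 3 marks in the same cell line, as independent. Where the other cluster had no peak the difference could not be negative, so for those libraries the sign was fixed in advance.

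**Figure D1:**
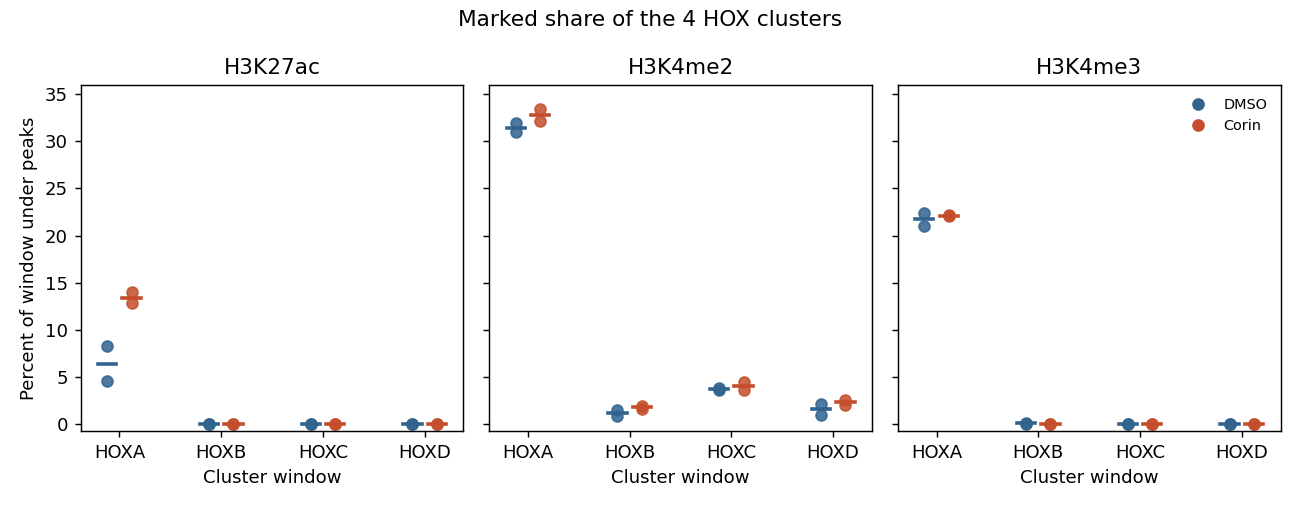
Percent of the bases of each HOX cluster window (20 kb flanks) under peaks, by mark; points are libraries, short lines are the means of 2 libraries, DMSO blue and Corin red. HOXA lies at 4.54% or more in every library, while HOXB, HOXC and HOXD show H3K4me2 of at most 4.46% and next to no other mark.

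Inside HOXA the marks lay mostly on the posterior genes. The posterior segment, the 39.0 kb from midway between the HOXA7 and HOXA9 starts to the HOXA13 start, had 50.1% ± 19.3 (SD, n = 12) of its bases under peaks, against 17.2% ± 9.09 for the 54.1 kb anterior segment from the HOXA3 transcript end to that midpoint. Both SDs include the differences between marks. The posterior segment was higher in 12 of 12 libraries, by 32.9 points on average (exact sign-flip permutation test, two-sided p = 0.000488, the smallest possible). Here too the test took the 12 libraries as independent. By mark the mean difference was 19.3 points for H3K27ac, 41.5 for H3K4me2 and 37.97 for H3K4me3 (n = 4 libraries each). Where the segments were replaced by 5 kb on either side of each member's start, the difference was 22.4 points, still in the same direction.

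**Figure D2:**
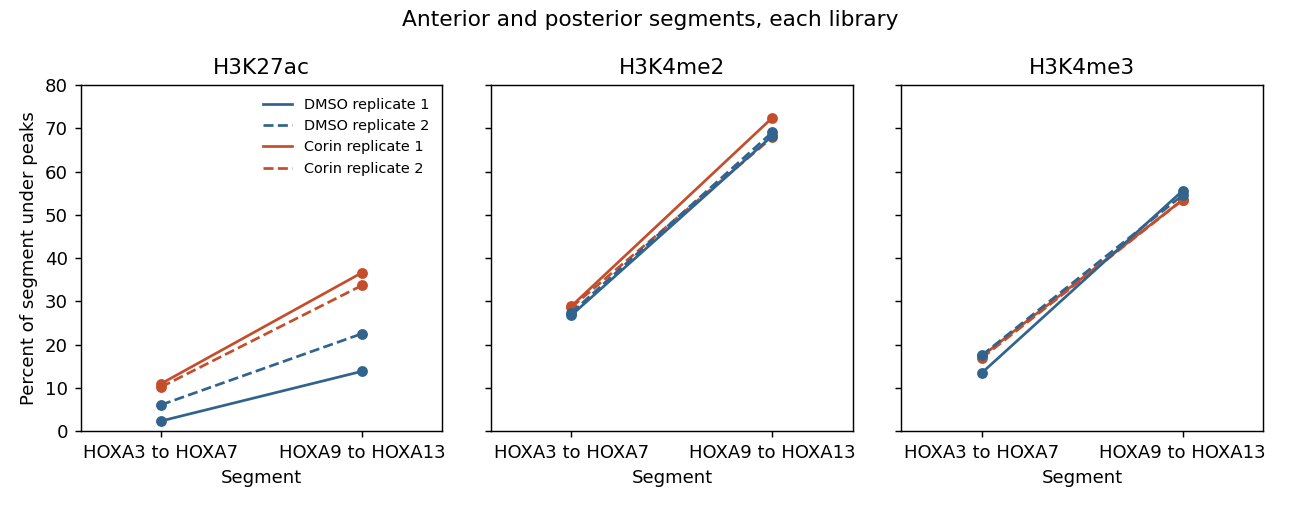
Percent of the anterior segment (HOXA3 to HOXA7) and the posterior segment (HOXA9 to HOXA13) under peaks, by mark; each line is 1 library, solid for replicate 1 and dashed for replicate 2, DMSO blue and Corin red. Every line is higher at its right end, and the treatments lie furthest apart for H3K27ac, where both Corin lines are above both DMSO lines in both segments.

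The anterior value was held down by stretches with no peak at all. Across the 12 libraries 39.8% of the HOXA window was under a peak of some mark in at least 1 library. The longest stretch without any, 26682 bp, ran from beyond HOXA2 to the HOXA4 promoter, across the low-coordinate part of the HOXA3 and HOXA4 transcripts. Another, of 10163 bp, held the whole HOXA5 gene and the body of HOXA6. H3K27ac was more restricted still: no list had an H3K27ac peak in the 75610 bp from the low end of the window to just upstream of HOXA6, which holds the starts of HOXA4, HOXA5 and HOXA6. These stretches were picked out after the values were seen.

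**Figure D3:**
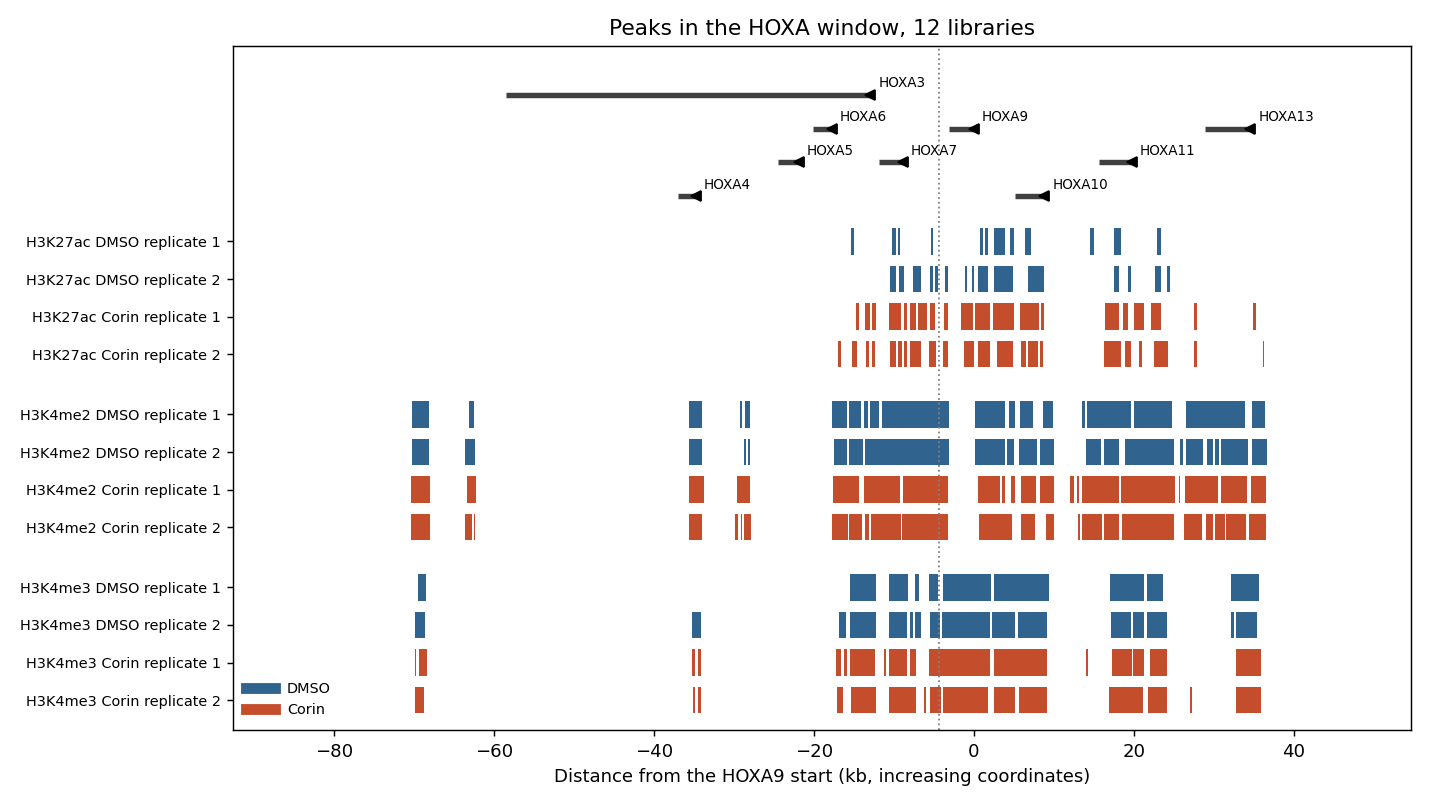
Peaks of the 12 libraries (rows; DMSO blue, Corin red) along the HOXA window, as distance in kb from the HOXA9 start; grey bars are the canonical transcripts of the 9 genes, arrowheads their starts, and the dotted line parts the anterior from the posterior segment. Peaks crowd between HOXA6 and HOXA13, the HOXA5 gene is bare in every row, and the H3K4me2 rows break over HOXA9 where the H3K4me3 rows are continuous.

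HOXA9, whose protein is a driver of KMT2A-rearranged leukaemia, stood at the centre of the marked region. Within 10 kb of its start, H3K4me3 peaks covered 81.7% of bases on average in the DMSO libraries, the highest value of all 20033 protein-coding genes. HOXA7 came next with 65.1% and HOXA10 was 3rd with 58.5%; these windows overlap, so the ranks are not separate observations. For H3K4me2 HOXA9 ranked 4th and HOXA7 5th, and for H3K27ac HOXA9 ranked 48th and HOXA10 74th. By contrast HOXA4, at 2.72% for H3K4me3, ranked 10077th, and HOXA13 had no H3K27ac in this window in DMSO.

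The promoter of HOXA9 was covered by H3K4me3 over all 2001 bp in each of the 4 libraries, as was its transcript over its whole length. Its H3K4me2 went the other way. No H3K4me2 peak touched the HOXA9 transcript (chr7:27162438-27165537) in any of the 4 libraries, although the mark was present on both sides. On the low side H3K4me2 ended 107 and 86 bp from the transcript's end after Corin and 63 and 68 bp from it after DMSO, so that all 4 edges fell within 44 bp. The 120 bases around those edges lie between genes; they are shown on the plus strand of hg38, with the span from the lowest to the highest edge in capitals.
H3K4me2 edge, chr7:27162294-27162413: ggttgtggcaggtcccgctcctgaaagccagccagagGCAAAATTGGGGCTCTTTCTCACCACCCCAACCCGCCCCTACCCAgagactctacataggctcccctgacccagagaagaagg

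On the upstream side the mark resumed 163 and 175 bp from the HOXA9 start after DMSO, and 495 and 591 bp from it after Corin. The stretch free of H3K4me2 was thus 3324 and 3341 bp long in the DMSO libraries and 3700 and 3775 bp in the Corin libraries, with no overlap between treatments. At the promoter this gave 506 and 410 bp of H3K4me2 after Corin against 838 and 826 bp after DMSO. H3K27ac differed in the opposite direction there: 1730 and 1463 bp after Corin against 301 and 819 bp after DMSO. Single genes were not tested, since an exact permutation of 2 libraries against 2 cannot give a p below 0.333, and the edges were examined after the pattern had been seen.

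HOXA10, a neighbour that acts in the same progenitors, had H3K4me3 over 1347 and 1405 bp of its promoter after Corin and 1651 and 1347 bp after DMSO. Its H3K27ac was 614 and 646 bp after Corin but 0 and 975 bp after DMSO, so the DMSO libraries lay on both sides of the Corin libraries. RefSeq gives HOXA10 another start 5541 bp upstream, around which H3K4me2 covered 1831 and 1786 bp after Corin against 1525 and 1324 bp after DMSO. That upstream start had an H3K4me3 peak, of 238 bp, in Corin replicate 1 only and an H3K27ac peak, of 488 bp, in DMSO replicate 1 only.

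HOXA11, a gene of limb and reproductive tract development, had H3K4me3 over 1764 to 2001 bp of its promoter in all libraries. Its H3K27ac was 1248 and 890 bp after Corin against 0 and 392 bp after DMSO, and its H3K4me2 was 2001 bp in both Corin libraries against 1663 and 1876 bp. Both marks were therefore higher after Corin. HOXA13, the most posterior gene, had H3K4me3 over 2001 bp in 3 libraries and 1858 bp in DMSO replicate 2, yet an H3K27ac peak, of 357 bp, only in Corin replicate 1. Its H3K4me2 was 1503 and 1718 bp after Corin against 1126 and 1491 bp after DMSO, again without overlap.

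Among the anterior genes HOXA7 and HOXA3 resembled the posterior ones. HOXA7 had H3K4me3 over 1719 and 2001 bp of its promoter after Corin and 1601 and 1593 bp after DMSO. Its H3K27ac was 1201 and 1006 bp against 363 and 892 bp, while its H3K4me2 was 1626 and 1780 bp against 2001 bp in both DMSO libraries. As at HOXA9, acetylation was higher and H3K4me2 lower in the Corin libraries. These calls did not hold in every setting. Around the start of the gene record, in place of the canonical start, H3K4me2 covered 2001 bp at HOXA7 in every library. At HOXA9 it was 1318 and 997 bp after Corin against 1247 and 1315 bp after DMSO. With each list held to the length of the shortest of its mark, HOXA7 H3K27ac was 753 and 666 bp against 363 and 892 bp.

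At HOXA3 the canonical start had H3K27ac over 1139 and 780 bp after Corin and none after DMSO, next to an H3K4me3 cover of 1639 and 1752 bp after Corin against 1722 and 1733 bp after DMSO. Of the 7 HOXA3 starts in RefSeq, 2 had a peak of any mark within 1 kb: the canonical start, which lies between HOXA6 and HOXA7 far from the rest of the gene, and one 1633 bp into the transcript. The other 5 had none in any library. HOXA3 H3K27ac was higher after Corin in all 6 settings tried for promoter width, start, number of peaks and score. HOXA7, HOXA9 and HOXA11 were higher in 5 of the 6. At HOXA9 the exception was the start of the gene record, with 76 and 11 bp after Corin against 0 and 115 bp after DMSO.

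HOXA4, HOXA5 and HOXA6 were the least marked. HOXA4 had H3K4me2 over 1814 and 1636 bp after Corin against 1609 and 1635 bp after DMSO, no H3K27ac, and H3K4me3 of 704 and 653 bp after Corin against 0 and 1089 bp. HOXA5, which acts in lung and blood development, had no peak of any mark at its promoter or over its transcript in any library. HOXA6 had no peak over its transcript but some on the upstream side of its promoter, with H3K4me3 of 488 and 342 bp after Corin against 0 and 99 bp after DMSO, and H3K27ac in Corin replicate 2 only, over 172 bp.

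**Figure D4:**
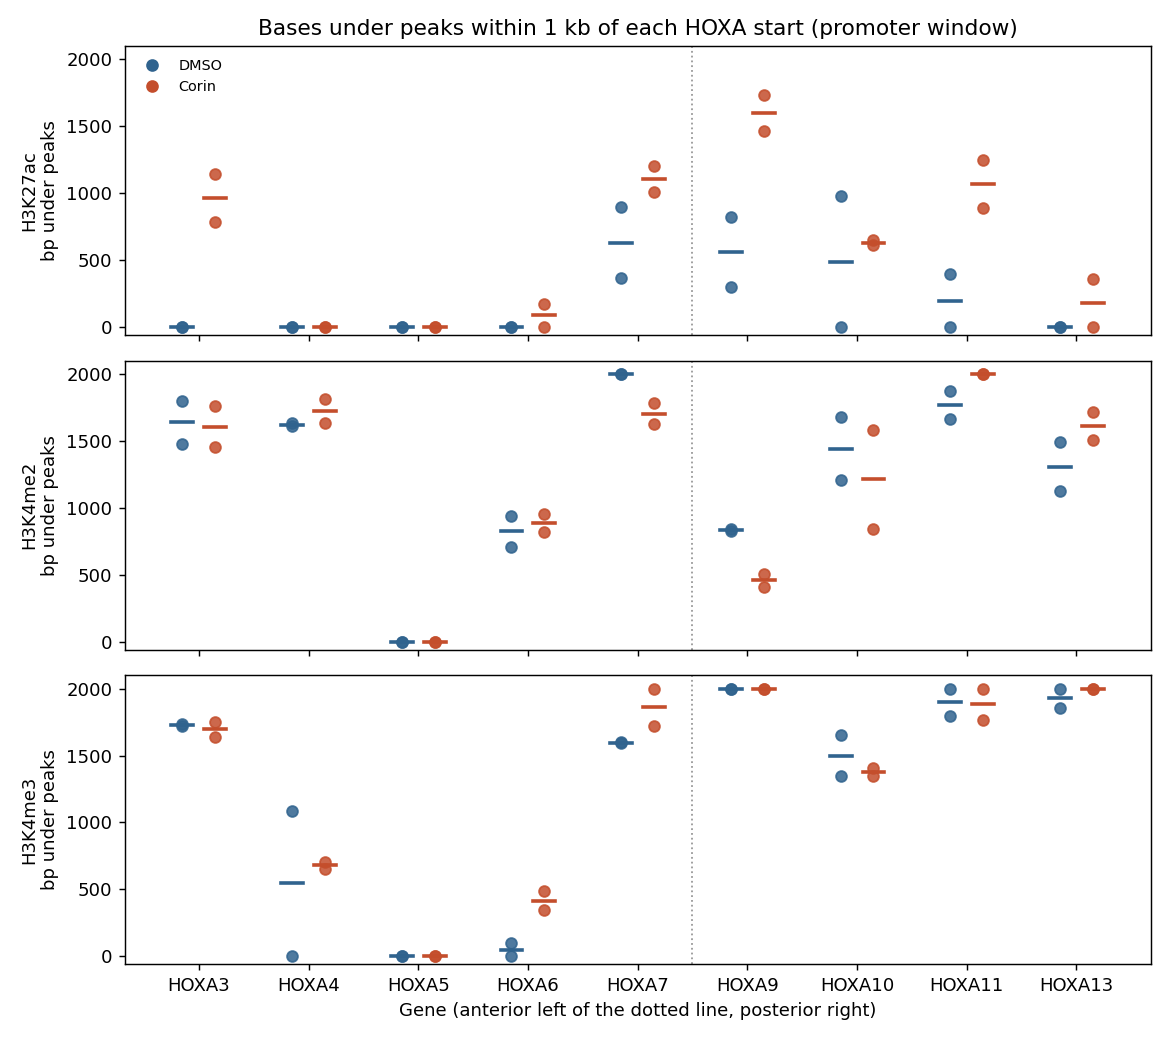
Bases under peaks within 1 kb of the start of each of the 9 HOXA genes, one panel per mark; points are libraries, short lines means of 2 libraries, DMSO blue and Corin red. For H3K27ac the Corin points lie above the DMSO points at HOXA3, HOXA7, HOXA9 and HOXA11, while for H3K4me2 they lie below at HOXA7 and HOXA9.

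Over the promoters that had any peak, H3K27ac was higher after Corin at 4 of 7 members (HOXA3, HOXA7, HOXA9 and HOXA11) and lower at 0 of 7. Over all genes with an H3K27ac peak, 45% of promoters were higher by the same rule and 0.888% lower, so the members' share was near the background. The median difference was 476 bp for the members and 274 bp for all genes. For H3K4me2, 3 of 8 members were higher (HOXA4, HOXA11 and HOXA13) against a background of 17.9%, and 2 of 8 were lower (HOXA7 and HOXA9) against 11.5%. The HOXA4 call rests on 1636 bp in Corin replicate 2 against 1635 bp in DMSO replicate 2. Within 5 kb of the start the H3K4me2 groups overlapped at HOXA7, HOXA11 and HOXA13. For H3K4me3, 2 of 8 were higher (HOXA6 and HOXA7) against 18.9% and 0 of 8 lower against 9.47%. With each list held to the length of the shortest of its mark, 2 of the 5 members with a peak, HOXA3 and HOXA9, remained higher for H3K27ac against a background of 31.1%, and 0 were lower against 3.62%. Within 5 kb of the start 7 of the 8 members with a peak were higher, against 50.4% of all genes with a peak, and within 10 kb 8 of 8 were, against 54.6%; windows of this width overlap between neighbouring members.

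In both DMSO libraries 8 of 9 member promoters had an H3K4me2 peak, against 59.5% of all genes, and 6 of 9 an H3K4me3 peak, against 48.9%. H3K27ac was present in both at 2 of 9, HOXA7 and HOXA9, against 26.4%. After Corin 5 of 9 member promoters had H3K27ac in both libraries (HOXA3, HOXA7, HOXA9, HOXA10 and HOXA11), against 37.7% of all genes.

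Over the whole cluster, H3K27ac covered 14.0% and 12.8% of the window after Corin and 4.54% and 8.21% after DMSO, a difference of 7.03 points (SD of the difference 2.73, n = 2) or 2.10-fold. The groups did not overlap. The H3K27ac lists as a whole were 1.96-fold longer in bases after Corin, and the share of a list that fell in HOXA was 0.0788% and 0.0938% after Corin and 0.0603% and 0.0962% after DMSO, which overlapped. At a matched number of peaks HOXA was covered over 11.7% and 10.1% after Corin and 4.54% and 7.70% after DMSO. The part of list length in the HOXA difference was not tested further.

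H3K4me2 covered 33.4% and 32.1% of the window after Corin and 31.0% and 31.9% after DMSO, a difference of 1.32 points (SD 1.12, n = 2) that barely parted the groups. It was 0.519 points at a matched number of peaks, where the groups overlapped, 0.689 points without Corin replicate 1 and 0.844 points without DMSO replicate 1. For H3K4me3 the values were 22.2% and 22.0% against 21.0% and 22.4%, a difference of 0.409 points (SD 0.974, n = 2) within the spread of the libraries. The share of a list that fell in HOXA was lower after Corin without overlap for both: 0.104% and 0.112% against 0.136% and 0.128% for H3K4me2, and 0.209% and 0.213% against 0.217% and 0.220% for H3K4me3. The exact permutation p was 0.333 for H3K27ac and H3K4me2 (adjusted p = 0.5) and 1 for H3K4me3, and 0.333 is the smallest that 2 libraries against 2 can give.

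Across the 3 marks the window was covered 2.92 points more after Corin (exact permutation within marks, two-sided p = 0.037, adjusted p = 0.0926 over 6 tests). The anterior segment was 3.22 points higher (p = 0.0278 by the same exact permutation, adjusted p = 0.0926) and the posterior segment 5.61 points higher (p = 0.176, adjusted p = 0.264). None of these passed after adjustment. Without DMSO replicate 1 the window difference was 1.92 points and the anterior one 1.83 points, and at a matched number of peaks the window, anterior and posterior differences were 1.69, 1.65 and 3.49 points. The changes of the 2 segments differed by 2.39 points, which did not pass either (exact permutation p = 0.333, adjusted p = 0.4). That difference was 1.38 points without Corin replicate 1 and 0.747 points with 5 kb on either side of each start in place of the segments. Peak number differed by 0.36 on the log2 scale (exact permutation p = 0.0463, adjusted p = 0.0926) and by 0.18 without DMSO replicate 1 or 0.57 without DMSO replicate 2. At a matched number of peaks it turned to -0.0065. The share of each list that fell in HOXA differed by -0.07 on the log2 scale (p = 0.537 by exact permutation, adjusted p = 0.537), a mean of 0.14 for H3K27ac, -0.29 for H3K4me2 and -0.05 for H3K4me3. For H3K27ac alone both segments had no overlap: 10.98% and 10.2% of the anterior segment after Corin against 2.36% and 6.09%, and 36.6% and 33.7% of the posterior against 13.8% and 22.5%. H3K4me2 differed without overlap in the anterior segment only, at 28.9% and 28.6% after Corin against 26.8% and 27.4%. H3K4me3 was lower after Corin in the posterior segment, at 53.5% and 53.4% against 55.6% and 54.5%.

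Merging the 4 lists of a mark gave 20 H3K27ac regions in the window, of which 7 were in all 4 libraries (22.8% of regions over the genome), 4 were gained (in both Corin libraries and neither DMSO library) and 0 lost. Over the genome 11.5% of H3K27ac regions were gained and 0.18% lost. The gained regions were a pair on either side of the HOXA3 start, chr7:27151918-27152524 (607 bp) and chr7:27152735-27153266 (532 bp), one upstream of HOXA11 inside its antisense gene HOXA11-AS, chr7:27185590-27186774 (1185 bp), and one between HOXA11 and HOXA13, chr7:27192976-27193419 (444 bp). Without DMSO replicate 2, 10 of 22 regions were gained, against 20.6% over the genome, and at a matched number of peaks 2 of 17 were, against a background of 4.49%. H3K4me2 had 15 regions, 12 in all 4 libraries (55.6% over the genome) and 1 gained, chr7:27178438-27178808 (371 bp) inside HOXA10, against a genome background of 9.64%; 0 were lost, against 0.158%. H3K4me3 had 14 regions, 8 in all 4 libraries (80.8% over the genome) and 0 gained, against 1.5%, or lost, against 0.29%.

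H3K27ac lay inside the methylated regions. Of the 4986 bp with H3K27ac in both DMSO libraries, 100% also had H3K4me3 and 98.1% H3K4me2 in both. After Corin H3K27ac was present in both libraries over 15273 bp, of which 87.8% had H3K4me3 and 80.2% H3K4me2. Bases acetylated after Corin thus reached partly beyond those with each methylation in both libraries. By interval between neighbouring starts, the stretch from HOXA7 to HOXA9 had 54.3% and 50.6% of its bases under H3K27ac after Corin and 2.34% and 32.2% after DMSO. The stretch from HOXA9 to HOXA10 was the most acetylated of those examined, with 79.98% and 65.8% after Corin and 40.9% and 64.3% after DMSO.

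By median width, the peaks of the window exceeded those of their whole list for H3K4me2 in all 4 libraries (1609 to 1893.5 bp against 782 to 862 bp) and for H3K4me3 in 3, while in Corin replicate 1 the H3K4me3 median was 930 bp against 1154 bp. For H3K27ac it was 472 to 729.5 bp against 450 to 501.5 bp. The widest H3K4me2 peak of DMSO replicate 2, chr7:27151875-27162370, spanned 10496 bp with the HOXA3 and HOXA7 starts inside it and was 2nd of 32299 peaks of its list by width. In DMSO replicate 1 the widest, with the HOXA7 start, spanned 8345 bp and was 18th of 30896. In the Corin libraries the widest H3K4me2 peaks held the HOXA11 start, at 6781 and 6541 bp, 105th and 76th of their lists. The merged H3K4me2 region with the HOXA3 and HOXA7 starts, chr7:27151767-27162375, nevertheless kept its cover. It was 10133 and 10003 bp after Corin against 9856 and 10496 bp after DMSO, which overlapped. The widest H3K4me3 peaks, of 5710 to 7541 bp, held the HOXA9 start in 3 libraries and the HOXA10 start in DMSO replicate 1, and ranked 8th to 28th. The widest H3K27ac peaks spanned 1480 to 2594 bp, ranked 260th to 1156th and held no member's start.

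The agreement of the lists inside the cluster set the scale of these differences. As shared over combined bases, the Jaccard index of the H3K27ac lists was 0.632 between the Corin libraries, 0.362 between the DMSO libraries and 0.258 to 0.515 between treatments. For H3K4me2 it was 0.838 and 0.842 within treatments and 0.827 to 0.848 between them, and for H3K4me3 0.849 and 0.826 within and 0.786 to 0.835 between. DMSO replicate 1 had the shortest H3K27ac cover, and Corin exceeded DMSO by 9.45 points within replicate 1 and by 4.61 points within replicate 2.

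The other genes of the locus followed their position. HOXA2 had H3K4me2 in all 4 libraries, over 618 to 1267 bp, and neither other mark. At the far end HOTTIP, a non-coding gene near HOXA13 known to act on the posterior genes, had H3K4me3 of 558 and 564 bp after Corin against 265 and 105 bp after DMSO around its start. Outside the window EVX1, the next homeobox gene, had no peak at its start, while SKAP2 on the other side had H3K4me3 over 823 to 1175 bp.

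Of the HOX partners, 5 of 9 had an H3K4me3 peak in both DMSO libraries, against 48.9% of all genes: MEIS1, MEIS2, PBX2, PBX3 and PKNOX1. The MEIS1 and PBX3 promoters were covered over all 2001 bp in every library. H3K27ac was higher after Corin at 2 of the 5 partners with a peak, PBX3 and PKNOX1, near the 45% of all promoters with a peak, and lower at 0, against 0.888%. H3K4me2 was lower at 2 of the 8 partners with a peak, MEIS1 and PBX2, against 11.5%. At MEIS1 it was 876 and 931 bp after Corin against 1270 and 1517 bp after DMSO, the same direction as at HOXA9. H3K4me3 was higher at PBX2, 1 of 5, against 18.9%, and lower at 0, against 9.47%.

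Of 16 factors that write, read or erase chromatin at HOXA, 15 had an H3K27ac peak and 12 of them were higher after Corin: KMT2A, MEN1, DOT1L, MLLT1, MLLT10, AFF4, EZH2, SUZ12, EED, KDM6A, KAT7 and CTCF. None was lower. The share over all promoters with a peak was 45%, as given above; the list was not tested against it. The KMT2A promoter, where the fusion gene is read from, had 1099 and 1218 bp after Corin against 0 and 719 bp after DMSO. H3K4me2 was higher at 1 of 16, MEN1, against 17.9% of all promoters with a peak, and lower at 2 of 16, AFF1 and AFF4, against 11.5%. H3K4me3 was higher at 1 of 16, AFF4, against 18.9%, and lower at 5 of 16, DOT1L, AFF1, EED, KAT7 and CTCF, against 9.47%.

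The 5 protein-coding genes outside the window whose 10 kb surroundings were most like those of HOXA9, by the mean absolute difference in percent of bases under peaks over the 12 libraries, were LAMP5 (16.5 points), BMI1 (17.0 points), CDKN2C (18.5 points), TSPOAP1 (19.2 points) and HNRNPU (20.1 points). LAMP5 had means of 53.8% for H3K27ac, 79.96% for H3K4me2 and 49.3% for H3K4me3, against 46.7%, 71.1% and 81.8% for HOXA9. Even the nearest gene thus differed from HOXA9 mainly in its shorter H3K4me3 cover.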

How the data were processed

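CUT&RUN peak lists of 12 libraries were used, 1 list per library, of 19 in the series; 7 libraries (all-trans retinoic acid with Corin, LSD1 and IgG) were not analysed here. Trim Galore, Bowtie2, Picard and MACS2 are named with hg38 in the submitters' processing notes, without versions. The labels give at least 5000000 paired-end reads of 150 bp per sample; depth per list is otherwise unknown, so no interval or floor that needs it was computed. Each peak carries a score that the authors deposited as whole numbers from 50 upward; what it measures is not given in the sources used here, and it served only to order or filter the peaks of one list.

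Peaks were merged within a library and their bases counted in the HOX windows, segments, promoters (GENCODE release 44, canonical start) and union regions (1 bp overlap) with Python 3.11.15 and numpy 2.4.6. Coverage, calls and tests were checked on simulated peak lists. Tests were two-sided exact permutations of treatment within marks (216 arrangements, smallest p 0.00926, libraries of different marks taken as independent) or sign flips over the 12 libraries (smallest p 0.000488), with Benjamini-Hochberg adjustment within families and a threshold of 0.05. Deviations of same-numbered libraries from their group means correlated at 0.223, 0.237 and 0.211 for H3K27ac, H3K4me2 and H3K4me3. A replicate block was therefore also run for the comparisons of treatments. What a shared number stands for is not labelled.

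Genes named are the 9 members, their neighbours, 9 HOX partners, 16 chromatin factors, 20 cell type markers and the 5 genes most like HOXA9; regions named are those gained and the widest peaks. Some genes of the neighbour and partner lists are not reported here. Members and lists were chosen with earlier results of these data known. Alternatives were the flank (0 or 50 kb), promoter width (5 or 10 kb) and start, a score of at least 100, a matched number of peaks, the overlap of union regions, the segment definition, the replicate block, 1 relabelling for all marks and leaving out each replicate.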

Additional observations from a re-analysis of the deposited data

How the results depend on the processing

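The lists give no depth, so a base without a peak may lie under the caller's threshold and is not shown to lack the mark, and no background antibody entered any comparison. The differences of HOXA from the other clusters and of the posterior from the anterior segment kept their direction and stayed past the threshold in every alternative run. The replicate block was not run for these differences, and their test took the 12 libraries as independent. With libraries of the same number as a replicate block, the Corin difference across marks was 2.92 points for the window (exact sign-flip p = 0.0938, adjusted p = 0.188), and the block changed no call; no difference between treatments passed 0.05 after adjustment in any alternative (lowest adjusted p = 0.0556, the anterior segment). At a matched number of peaks the window difference for H3K4me3 turned to -0.26 points and that of peak number to -0.0065 on the log2 scale; the cause was not tested beyond the shorter lists this setting builds. Leaving out single replicates gave -0.27 to 1.09 points for H3K4me3 (lowest without DMSO replicate 1) and -0.16 to 0.045 on the log2 scale for the share of a list in HOXA (highest without DMSO replicate 2). Members with H3K27ac higher after Corin numbered 7 within 5 kb, 8 within 10 kb and 2 at a matched number of peaks. Over all genes with a peak the shares were 50.4%, 54.6% and 31.1%. For H3K4me2 within 5 kb, 1 was higher and 1 lower, and 0 were lower at the start of the gene record. For H3K4me3, 0 were higher at the start of the gene record and 1 at a score of at least 100. Leaving out single replicates gave 0 to 1 lower for H3K27ac, 2 to 4 lower for H3K4me2 and 0 to 2 lower for H3K4me3. The share over all genes was not computed at these H3K4me2 and H3K4me3 settings or with replicates left out. Those member counts therefore show only how far the calls moved. Gained H3K27ac regions numbered 2 at a matched number of peaks; gained H3K4me2 regions numbered 2 where 50% of the region had to be covered, 0 at a matched number of peaks and 0 at a score of at least 100. Leaving out single replicates gave 5 to 10 gained and 0 to 1 lost H3K27ac regions, 1 to 2 gained H3K4me2 regions, and 0 to 3 gained and 0 to 1 lost H3K4me3 regions, with fewer libraries to satisfy. Among these settings the share over the genome was computed only for gained H3K27ac regions. It was 4.49% at a matched number of peaks and 20.6% without DMSO replicate 2. The other region counts show only how far the calls moved.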
